A study of Homo sapiens with 71 samples.

Results

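The comparison described here set HepG2 cells grown in water from the site coded LRMN against HepG2 cells grown in purified water. Its members were chosen by their labels alone: the 4 LRMN libraries and the 8 control libraries, 12 of the 71 libraries of the series, with all measured genes. HepG2 is a human hepatoma line that keeps many functions of hepatocytes. Cells of pooled flasks were spread over dishes, grown for 72 hours and then exposed for 48 hours. The LRMN medium was 75% site water that had passed a 0.7 µm filter, and the control medium held ultrapure water in its place; concentrated culture medium with serum and the antibiotic mixtures was shared by both groups. The series covers 16 surface water sites with the same design. One water collection stands behind all LRMN dishes as far as the labels tell, and all dishes came from 1 pool of cells, so the p values measure the spread between dishes and not between visits to the site.

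RNA was measured with TempO-Seq, a targeted assay that ligates pairs of short probes lying next to each other on a transcript and then sequences the joined products. The authors' table of estimated counts runs from A and is held here only as far as RAI14; symbols after it were not analysed here. The 12 libraries held counts for 10809 features, of which 6695 passed the filter on low counts and were tested. Levels are in CPM, counts scaled to a library total of 1e6, and errors of means are SD. A log2 change of 1 is a 2-fold difference; changes are LRMN minus control, with standard errors, from edgeR's quasi-likelihood test. A gene was called, and is said to have risen or fallen, when its Benjamini-Hochberg adjusted p over all features tested was under 0.05. Where a value with ± stands beside a gene without a unit, it is the log2 change with its standard error.

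Total counts were 4.47 to 7.77 M (M stands for 1e6) in the LRMN libraries and 8.18 to 14.5 M in the controls, so every LRMN library was shallower than every control. Within their groups, LRMN 2 and LRMN 4 stood apart, with an SD of log2 differences from the group of 0.541 and 0.593 over 3543 abundant features, against 0.160 to 0.365 in the other 10 libraries. In LRMN 4, 63 of these features lay at least 2 log2 units below the other LRMN libraries; their median in CTRL 1 was 1.25 log2 units below the other controls (log2 difference -1.25). Only 1 of the 63, DUT, was called, a call lost on leaving out single libraries (each of LRMN 1, 2 and 4 and CTRL 2, 3, 4, 5 and 8). The 9 libraries left without LRMN 2, LRMN 4 and CTRL 1 are called the reduced set, and the gene lists below, apart from markers of other cell types, are also counted in it. The part of depth or RNA quality in the results was not tested.

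Between LRMN and purified water, 1065 of 6695 features differed (15.9%), 503 higher at LRMN (7.51%) and 562 lower (8.39%). Counts of called list members below are to be set against these shares. Most changes were small: the median size among the called features was 0.59 log2 units, and 143 reached 1 log2 unit, 29 of them higher and 114 lower. The LRMN libraries lay outside the range of the controls for 587 called features, 291 above and 296 below. Over all tested features, 332 (4.96%) lay above every control and 307 (4.59%) below. Some genes below, POLD3, DYSF and LGALS3 among them, were named by a rule that required groups apart. For those genes, groups apart is no support. The median log2 change over all tested features was -0.03. The call of 495 features (238 higher, 257 lower) held when any 1 of the 12 libraries was left out. Without LRMN 2, LRMN 4 and CTRL 1, 377 of 6867 features (5.49%) were called, 180 higher and 197 lower, and all 1065 features kept their direction. LRMN 1 and LRMN 3 are the only LRMN libraries left there. All libraries of that set also entered the fit that chose the 1065, so a kept direction is no independent support. In that set, 2.62% of the features tested were higher and 2.87% lower. Without LRMN 4 and CTRL 1, 1058 were called (15.7%), 8.14% of features higher and 7.52% lower. A fit of all 17 groups with 71 libraries called 348 features (5.01%), 2.20% higher and 2.81% lower. The same fit without 3 libraries of other sites that stood apart called 1214 (17.6%), 9.36% higher and 8.20% lower.

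**Figure D1:**
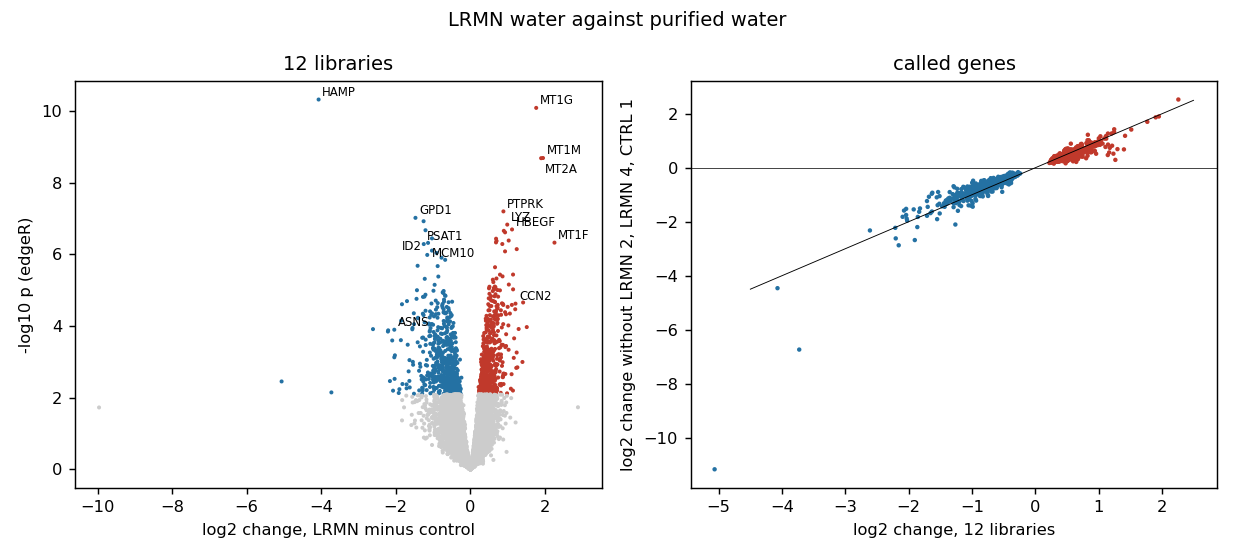
Left, each point is 1 of 6695 features, with its log2 change (LRMN minus control) on the x axis and -log10 of its unadjusted edgeR p on the y axis; red was called higher and blue lower. Right, the log2 change of the 1065 called features with all 12 libraries (x axis) and without LRMN 2, LRMN 4 and CTRL 1 (y axis). The diagonal marks equal values. HAMP and the metallothionein genes lie far from the bulk. Every point keeps its sign, but the y values come from part of the same libraries.

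Metallothioneins are small cysteine-rich proteins that bind zinc, copper and cadmium. Their genes are switched on by the metal-sensing transcription factor MTF1, which binds short metal response elements in their promoters. They lie side by side on chromosome 16. Of the tested members of the family, 4 of 5 rose and the fifth, MT1E, did not pass; the median log2 change of the 5 was 1.90, against -0.03 over all tested features. The 4 that rose had the 4 largest log2 changes of all 503 features called higher. MT1F, however, passed the filter on low counts only through the LRMN libraries, where it was higher. Its place in these counts and in the median is therefore no support. MT1M, MT1G, MT2A and MT1E were abundant enough in both groups.

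The promoter of MT2A is shown because this family made the largest rise. The 250 bases before its start (RefSeq, GRCh38.p14, chr16:56608334-56608583, plus strand) are printed 5′ to 3′, with matches to the metal response core TGCACNC or TGCGCNC on either strand in capitals.
MT2A: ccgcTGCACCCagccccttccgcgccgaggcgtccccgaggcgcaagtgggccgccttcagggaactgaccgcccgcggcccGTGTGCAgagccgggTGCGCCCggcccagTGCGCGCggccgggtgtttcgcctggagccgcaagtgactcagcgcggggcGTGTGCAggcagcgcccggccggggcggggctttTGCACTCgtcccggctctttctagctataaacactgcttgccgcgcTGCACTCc
This stretch held 7 such matches. Of 27305 promoter stretches of the same length, 24.7% held at least 1 match and 1.56% held 3 or more; for the 5302 promoters of tested genes these shares were 33.2% and 2.36%. MT1M, MT1G and MT1F have no entry in the promoter table. A match is a description of letters and not a measured binding site.

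MT1M measured 61.5, 65.98, 64.6 and 59.4 CPM in LRMN libraries 1 to 4, against 10.3 to 22.1 (median 15.2) in the controls. Every LRMN library stood above every control, and the change was 1.95 ± 0.15 (adjusted p = 3.49e-06). The gene lies at chr16:56632233-56633986 (GRCh38, GENCODE 29). MT1G, the most abundant member at chr16:56666731-56668065, measured 725, 848, 763 and 789 CPM in the 4 LRMN libraries. The controls held 184 to 293 (median 221) CPM, and the change was 1.77 ± 0.11 (adjusted p = 2.76e-07). MT2A measured 31.7, 27.3, 31.9 and 40.6 CPM in LRMN libraries 1 to 4, against 6.05 to 10.4 (median 9.01) in the controls, a log2 change of 1.90 ± 0.15 (adjusted p = 3.49e-06). MT1F was scarce: 2.96, 2.497, 3.76 and 2.098 CPM in LRMN and 0.3399 to 0.9798 (median 0.506) CPM in the controls, a log2 change of 2.26 ± 0.27 (adjusted p = 0.000166). For all 4 genes the call held without any 1 library and without LRMN 2, LRMN 4 and CTRL 1. MT1E measured 13.3, 15.3, 21.6 and 9.37 CPM in LRMN and 9.55 to 18.01 (median 14.9) CPM in the controls, with a change of 0.01 ± 0.21 (adjusted p = 0.98); its groups overlapped.

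Members of this family are close copies of each other and no source used here gives the probe positions, so reads may be split between them. The summed level of the 11 listed genes does not depend on that split. It was 836 to 963 CPM in the LRMN libraries and 219 to 344 CPM in the controls. MT1X, too scarce to be tested, had 32 counts over the LRMN libraries and 30 over the deeper controls. Of 9 tested genes of zinc and copper handling, which include MTF1 and the copper exporters ATP7A and ATP7B, none was called by edgeR or DESeq2, and none had an unadjusted p under 0.05; in the reduced set, none was called in either direction by edgeR (at an unadjusted p under 0.05, 1 higher and 0 lower). Their median log2 change was 0.00 (MTF1 -0.04 ± 0.26, ATP7B 0.36 ± 0.30).

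**Figure D2:**
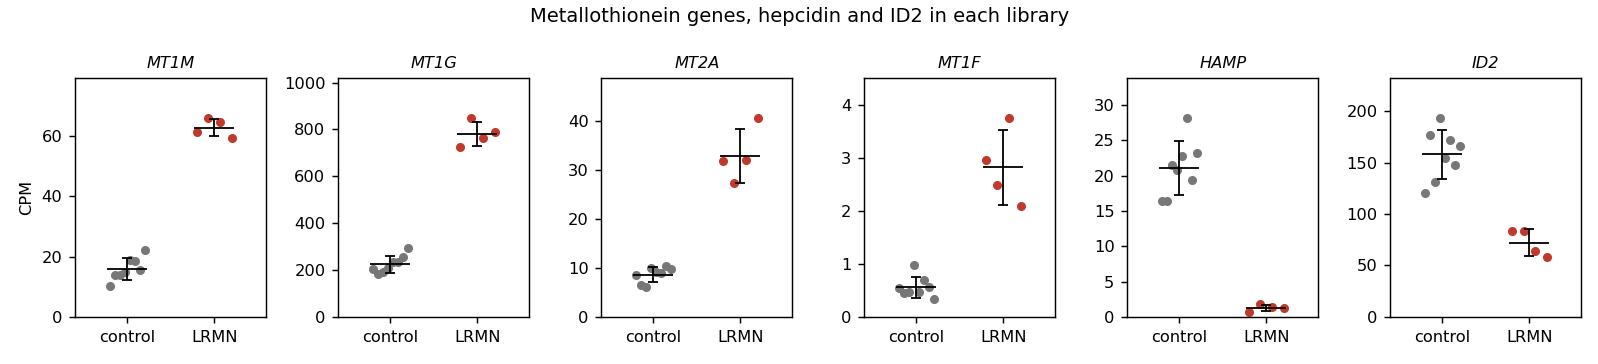
CPM in each library for 4 metallothionein genes, HAMP and ID2; grey points are the 8 controls, red points the 4 LRMN libraries, and the bar with whiskers is the mean ± SD. The y axis starts at 0 in each panel; the groups do not overlap in any panel, with LRMN above the controls for the metallothionein genes and below them for HAMP and ID2.

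HAMP encodes hepcidin, the liver hormone that lowers blood iron by causing the iron exporter ferroportin to be degraded. Its transcription is driven by bone morphogenetic protein (BMP) signals through SMAD proteins and by interleukin 6 through STAT3. HAMP made the largest fall of any gene in the rule for named genes. It passed the filter on low counts only through the controls, where it was higher. Its place in the list counts below is therefore no support. HAMP measured 0.658, 1.78, 1.41 and 1.26 CPM in LRMN libraries 1 to 4, against 16.4 to 28.1 (median 21.1) in the controls. The highest LRMN library stood far below the lowest control. The change was -4.07 ± 0.24 (adjusted p = 2.76e-07), and the call held without any 1 library, with a range of log2 changes from -4.27 to -3.84.

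The 250 bases before the start of HAMP (RefSeq, GRCh38.p14, chr19:35282278-35282527, plus strand) are shown because patterns of both inputs are known there. Capitals mark matches on either strand to the BMP response core GGCGCC and to the STAT site pattern TTCNNNGAA.
HAMP: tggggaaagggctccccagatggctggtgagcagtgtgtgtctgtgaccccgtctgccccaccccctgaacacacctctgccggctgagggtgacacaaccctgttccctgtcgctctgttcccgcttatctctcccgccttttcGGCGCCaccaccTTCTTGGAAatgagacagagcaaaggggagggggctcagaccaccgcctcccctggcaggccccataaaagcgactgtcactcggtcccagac
Each pattern matched once, the BMP core starting 105 bases before the start site and the STAT pattern 93 bases before it. Of 27305 promoter stretches, 16.1% held the first pattern and 6.78% the second. Among the 5302 of these that belong to tested genes the shares were 27.0% and 5.36%.

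Of 17 tested genes of hepcidin control and BMP-SMAD signalling, 2 fell (HAMP and ID2) and 1, BMPR2, rose; the median was -0.06. That is 17.6% of the list, against 15.9% of all features. With those 9 libraries alone, none rose and 3 fell by edgeR (at an unadjusted p under 0.05, 2 higher and 4 lower). ID2 is a target of BMP signals that blocks helix-loop-helix transcription factors. ID2 measured 83.2, 83.6, 64.4 and 57.8 CPM in LRMN libraries 1 to 4, against 121 to 193 (median 160.5) in the controls, a log2 change of -1.15 ± 0.15 (adjusted p = 0.000269). All 4 LRMN libraries lay below the controls. ID1, a related target, measured 211, 1053, 410.4 and 191 CPM in LRMN and 428 to 1892 (median 1064) CPM in the controls. LRMN 2 stood inside the control range and the change was -1.20 ± 0.46 (adjusted p = 0.0883), which did not pass; without LRMN 2, LRMN 4 and CTRL 1 it did (-1.88, adjusted p = 0.0117). The receptor gene BMPR2 had a log2 change of 0.36 ± 0.11, a call lost without any 1 of LRMN 1, 2, 3 or 4 or CTRL 2, 4 or 7 (adjusted p up to 0.0678). The receptors BMPR1A (-0.11 ± 0.08) and ACVR1 (0.21 ± 0.12) and the iron sensor partner HFE (0.12 ± 0.11) did not pass.

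Among 14 tested genes of iron storage and uptake, 4 rose and 3 fell (median 0.02). In the reduced set, 3 rose and none fell by edgeR (at an unadjusted p under 0.05, 5 higher and 2 lower), and in the fit of all 71 libraries, 1 rose and none fell by edgeR (at an unadjusted p under 0.05, 3 higher and 2 lower). IREB2, the iron regulatory protein that binds mRNAs when iron is scarce, rose by 0.73 ± 0.14 log2 units (adjusted p = 0.00327). HP, haptoglobin, which binds free haemoglobin, measured 147, 150.3, 147 and 161 CPM in LRMN and 167 to 298 (median 214) CPM in the controls, a log2 change of -0.58 ± 0.14 (adjusted p = 0.0129). Both calls held without any 1 library, and that of HP did not hold without LRMN 2, LRMN 4 and CTRL 1 (adjusted p = 0.0891). FTH1, the ferritin heavy chain, had a log2 change of -0.01 ± 0.17 (adjusted p = 0.984).

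Before a cell copies its DNA, the origin recognition complex, CDC6 and CDT1 load the MCM helicase, which MCM10 and the GINS complex then help to activate. E2F transcription factors drive many of these genes. Of 47 tested genes of DNA replication and S phase, 24 fell and none rose by edgeR (DESeq2, 26 and none; at an unadjusted p under 0.05, 31 and none), against 8.39% and 7.51% of all features. Their median log2 change was -0.65. With those 9 libraries alone, none rose and 13 fell by edgeR (at an unadjusted p under 0.05, 0 higher and 28 lower). With LRMN 4 and CTRL 1 alone left out, 21 fell, and in the fit of all 71 libraries 15 fell.

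MCM10 measured 17.4, 18.5, 13.9 and 19.6 CPM in LRMN libraries 1 to 4 and 31.1 to 44.8 (median 34.9) CPM in the controls. The change was -1.13 ± 0.13 (adjusted p = 0.000166), and no LRMN library reached the control range. GINS4, a GINS subunit, measured 5.43, 4.64, 4.698 and 5.04 CPM against 9.02 to 11.4 (median 9.59) CPM, a log2 change of -1.03 ± 0.13 (adjusted p = 0.00023). MCM3, a helicase subunit, measured 271, 261, 273 and 281 CPM against 353 to 480.3 (median 428) CPM, a log2 change of -0.67 ± 0.09 (adjusted p = 0.000342). CDC6 measured 6.41, 4.28, 8.93 and 8.11 CPM against 11.2 to 16.8 (median 13.8) CPM, a log2 change of -1.03 ± 0.19 (adjusted p = 0.00337). POLD3, a subunit of DNA polymerase delta, measured 4.11, 1.96, 8.22 and 3.36 CPM against 9.57 to 18.2 (median 11.04) CPM, a log2 change of -1.56 ± 0.30 (adjusted p = 0.00401); without LRMN 2, LRMN 4 and CTRL 1 its adjusted p was 0.0533. The groups did not overlap for any of these 5 genes, and their calls held without any 1 library. For POLD3, groups apart was a condition of being named. Other falls that held were GINS2 (-0.87), the exonuclease EXO1 (-1.04), the primase PRIM1 (-1.09), the histone chaperone ASF1B (-0.92), DSCC1 (-0.74) and CDT1 (-0.47). The list was not uniform: MCM2 had a log2 change of 0.26 ± 0.27 and MCM7 -0.18 ± 0.12, neither called. PCNA had a log2 change of -1.50 ± 0.71 (adjusted p = 0.158), also not called.

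The 250 bases before the start of MCM3 (RefSeq, GRCh38.p14, chr6:52284743-52284992, minus strand) are shown because they hold an E2F-type site; matches to TTTCCCGC, TTTGGCGC, TTTCGCGC or TTTGCCGC on either strand are in capitals.
MCM3: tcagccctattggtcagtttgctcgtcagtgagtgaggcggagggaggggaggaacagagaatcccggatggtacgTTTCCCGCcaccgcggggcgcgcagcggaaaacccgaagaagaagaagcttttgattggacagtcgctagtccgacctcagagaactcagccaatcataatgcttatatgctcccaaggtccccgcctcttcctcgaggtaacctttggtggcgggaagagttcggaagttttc
Among the replication genes that fell, 7 of 17 with an entry in the promoter table held at least 1 such site (41.2%). Among those tested and not called, 5 of 20 did (25.0%), and so did 4.51% of the 5302 promoters of tested genes and 2.79% of all 27305 promoter stretches. The promoters of MCM10 and CDC6 held none of the 4 letter runs in this window.

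Mitotic genes act after replication, in the division of the cell. Of 52 tested, 10 fell and none rose by edgeR (median -0.38; DESeq2, 11 and none; at an unadjusted p under 0.05, 24 and none). In the reduced set, none rose and 5 fell by edgeR (at an unadjusted p under 0.05, 0 higher and 18 lower), and in the fit of all 71 libraries, none rose and 2 fell by edgeR (at an unadjusted p under 0.05, 0 higher and 14 lower). The kinesin KIF14 (-0.71 ± 0.13, adjusted p = 0.003), the spindle protein DLGAP5 (-0.58 ± 0.11, adjusted p = 0.00337) and the condensin subunit NCAPH (-0.55 ± 0.11, adjusted p = 0.00605) were below every control in all 4 LRMN libraries; without LRMN 2, LRMN 4 and CTRL 1 the adjusted p of NCAPH was 0.0885. MKI67, the proliferation marker Ki-67, measured 55.1, 60.99, 58.7 and 68.1 CPM in LRMN and 46.8 to 65.6 (median 63.02) CPM in the controls, with a change of -0.00 ± 0.11 (adjusted p = 0.989). The checkpoint kinase CHEK1 fell (-0.57 ± 0.10, adjusted p = 0.00226), as did H2AFX, a histone variant marked at DNA breaks (-0.70 ± 0.11, adjusted p = 0.00177). CDKN1A, the p53 target p21, was scarce and had a log2 change of -0.07 ± 0.31 (adjusted p = 0.904). Fewer dividing cells and less of these transcripts per cell cannot be told apart in bulk RNA.

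ATF4 is a transcription factor made when amino acids run short or the endoplasmic reticulum is stressed, and it turns on genes that make and load amino acids. Of 22 tested genes of this response, 9 fell and 2 rose (median -0.28). With those 9 libraries alone, none rose and 4 fell by edgeR (at an unadjusted p under 0.05, 1 higher and 11 lower). In the fit of all 71 libraries 6 fell and 1 rose. PSAT1, an enzyme of serine synthesis at chr9:78297143-78330093, measured 34.2, 26.04, 30.5 and 22.5 CPM in LRMN and 48.2 to 81.2 (median 66.9) CPM in the controls, a log2 change of -1.25 ± 0.15 (adjusted p = 0.000166). ASNS, asparagine synthetase, measured 14.8, 12.7, 15.3 and 3.78 CPM against 16.7 to 70.7 (median 45.98) CPM, a log2 change of -2.04 ± 0.40 (adjusted p = 0.00408). LRMN 4 was the lowest for ASNS, and CTRL 1 held the lowest control value, 16.7 CPM; without both, the change was -1.82 (adjusted p = 0.00043). ALDH1L2, a mitochondrial folate enzyme, fell (-0.97 ± 0.17, adjusted p = 0.00257). So did JDP2, a partner of the AP-1 proteins (-0.74 ± 0.13, adjusted p = 0.00207), and DDIT3, which encodes CHOP (-0.48 ± 0.12, adjusted p = 0.0127). These 5 genes were below every control in all 4 LRMN libraries. ALDH18A1, an enzyme of proline synthesis, went the other way: 26.6, 70.6, 32.7 and 32.03 CPM in LRMN, 11.01 to 27.9 (median 17.1) CPM in the controls and a log2 change of 1.18 ± 0.24 (adjusted p = 0.00577). LRMN 2 stood far above the other LRMN libraries for it, and without LRMN 2, LRMN 4 and CTRL 1 the call was lost (adjusted p = 0.0876). ATF4 itself had a log2 change of -0.11 ± 0.10 (adjusted p = 0.456). Of 10 tested aminoacyl-tRNA synthetases, which charge tRNAs, 3 fell (AARS, CARS and NARS) and none rose by edgeR or DESeq2, and at an unadjusted p under 0.05 there were 4 lower and 1 higher; in the reduced set, none rose and 2 fell by edgeR (at an unadjusted p under 0.05, 0 higher and 3 lower). The call of NARS was lost without any 1 of 8 libraries (LRMN 2 and 3, CTRL 2 to 6 and CTRL 8; adjusted p up to 0.0673), while AARS had a log2 change of -0.51 ± 0.09 (adjusted p = 0.00254) and CARS -0.54 ± 0.10 (adjusted p = 0.00265).

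WNT signals stabilise beta-catenin, which in liver switches on a set of genes of the cells around the central vein. Of 21 tested genes of this list, 4 rose and none fell by edgeR (median 0.31). That is 19% called, near the 15.9% of all features. By DESeq2, 5 rose and 1 fell. At an unadjusted edgeR p under 0.05, 9 were higher and 3 lower. In the reduced set, 4 rose and none fell by edgeR (at an unadjusted p under 0.05, 7 higher and 4 lower). GLUL, glutamine synthetase, measured 221, 262, 240.1 and 250.2 CPM in LRMN and 125 to 168 (median 151) CPM in the controls, a log2 change of 0.66 ± 0.09 (adjusted p = 0.000497). AXIN2, a feedback inhibitor of the pathway, measured 89.6, 95.9, 81.5 and 98.9 CPM against 53.8 to 69.6 (median 63.3) CPM, a log2 change of 0.52 ± 0.09 (adjusted p = 0.00198). CTNNB1, which encodes beta-catenin, measured 550.5, 509, 603 and 628 CPM against 298 to 434 (median 378) CPM, a log2 change of 0.57 ± 0.09 (adjusted p = 0.00183). The LRMN libraries lay above every control for these 3 genes and for ETNPPL (1.03 ± 0.23, adjusted p = 0.00893), which breaks down phosphoethanolamine. LGR5, a receptor that amplifies WNT signals, ranged from 4.62 CPM in LRMN 4 to 125 CPM in LRMN 2 and did not pass (0.57 ± 0.50, adjusted p = 0.447). MYC did not pass (-0.18 ± 0.07, adjusted p = 0.0775).

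YAP and its partner TEAD respond to cell shape, stiffness and contact. Of 20 tested targets, 7 rose and 1 fell (median 0.27), and in the reduced set, 2 rose and none fell by edgeR (at an unadjusted p under 0.05, 9 higher and 4 lower). CCN2, a secreted matrix protein, measured 566, 1196, 541 and 653 CPM in LRMN and 258 to 485 (median 289.8) CPM in the controls, a log2 change of 1.21 ± 0.20 (adjusted p = 0.00189). EDN1, the vasoconstrictor endothelin, measured 122, 142, 176 and 103 CPM against 47.7 to 76.7 (median 56.6) CPM, a log2 change of 1.15 ± 0.16 (adjusted p = 0.00075). The groups did not overlap for these genes. ANKRD1 overlapped with the controls: 678, 704, 673 and 749.6 CPM in LRMN, 369 to 682 (median 482) CPM in the controls and a log2 change of 0.52 ± 0.13 (adjusted p = 0.0163). Without LRMN 2, LRMN 4 and CTRL 1 its adjusted p was 0.129. CCN1, a relative of CCN2, was scarce and had a log2 change of -0.23 ± 0.29 (adjusted p = 0.62).

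Ligands of the EGF family bind receptors whose signals pass through MAP kinases. Of 19 tested genes, 4 rose and none fell by edgeR or DESeq2 (median 0.19). That is 21.1% called, against 15.9% of all features. At an unadjusted edgeR p under 0.05, 5 were higher and 1 lower. In the reduced set, 2 rose and none fell by edgeR (at an unadjusted p under 0.05, 4 higher and 0 lower). HBEGF, a membrane-bound ligand, measured 79.4, 78.3, 66.9 and 81.8 CPM in LRMN and 22.8 to 41.1 (median 34.9) CPM in the controls, a log2 change of 1.12 ± 0.12 (adjusted p = 0.000135). ERBB2, a receptor gene of this list, measured 64.8, 123, 70.0 and 80.7 CPM against 48.01 to 63.7 (median 51.2) CPM, a log2 change of 0.63 ± 0.14 (adjusted p = 0.00897). Without LRMN 2, LRMN 4 and CTRL 1 its adjusted p was 0.0699. ETV4, a transcription factor downstream of MAP kinases, rose (0.64 ± 0.11, adjusted p = 0.00233). EGFR rose too, with 30.6, 27.6, 13.2 and 38.2 CPM in LRMN and 8.904 to 20.04 (median 14.5) CPM in the controls, a log2 change of 0.89 ± 0.24 (adjusted p = 0.0227); the call was lost without LRMN 1, LRMN 2 or LRMN 4 (adjusted p up to 0.0636). DUSP6, a phosphatase that feeds back on the pathway, did not pass (0.47 ± 0.18, adjusted p = 0.0933). PIM1, a kinase of the immediate early list, rose (1.02 ± 0.19, adjusted p = 0.0035). Of the 21 tested genes of that list, 2 rose and 0 fell by edgeR (median -0.06). The share called was 9.52%, below the 15.9% of all features. At an unadjusted edgeR p under 0.05, 2 of them were higher and 2 lower. In the reduced set, 1 rose and 0 fell by edgeR (at an unadjusted p under 0.05, 1 higher and 0 lower).

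**Figure D3:**
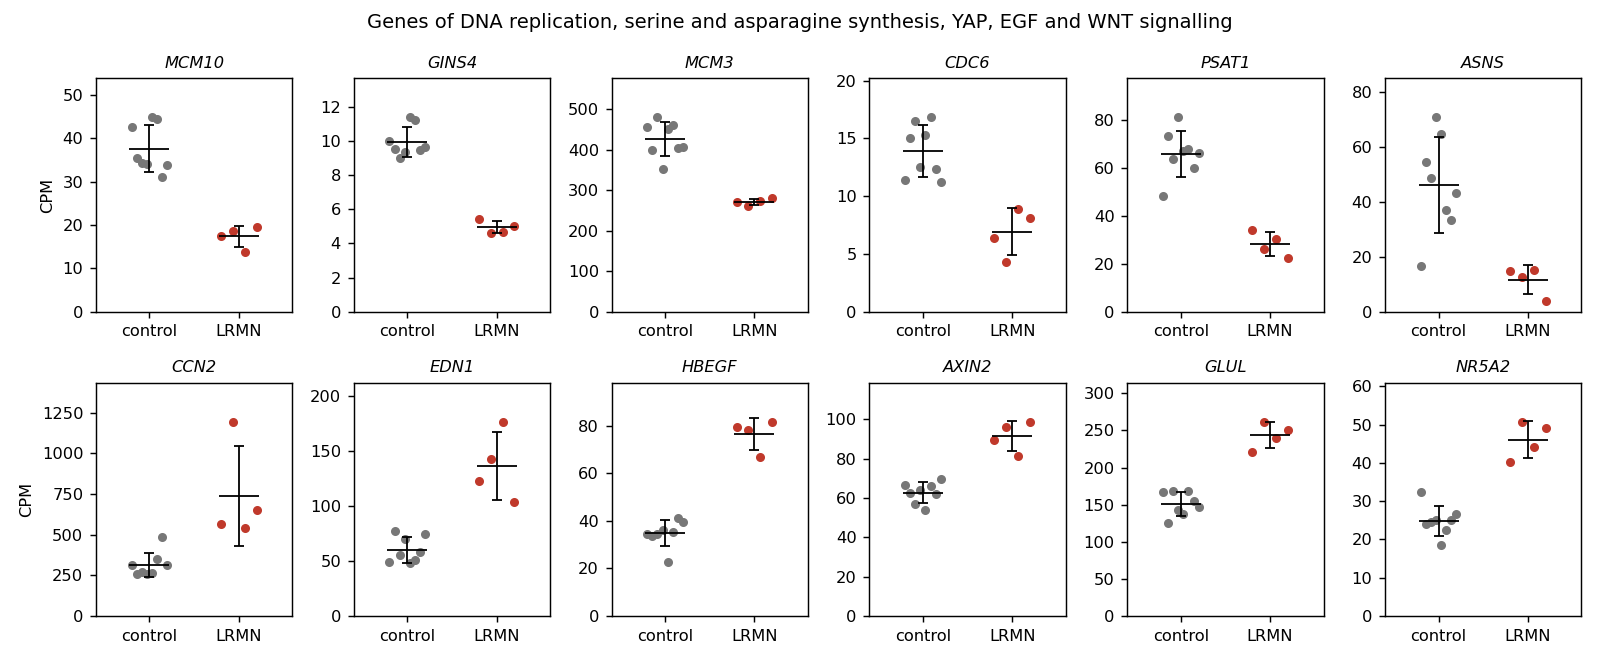
CPM in each library (y axis from 0) for 12 genes of DNA replication, amino acid synthesis and the YAP, EGF and WNT pathways; grey points are the 8 controls, red points the 4 LRMN libraries, and the bar with whiskers is the mean ± SD. The groups do not overlap in any of the 12 panels. ASNS, CCN2, EDN1 and HBEGF also met a naming rule that required this. For ASNS the highest LRMN library, at 15.3 CPM, comes close to CTRL 1 at 16.7 CPM.

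Genes of fuel use moved in both directions. Of 23 tested genes of glycolysis, 6 rose and 2 fell (median 0.23). With those 9 libraries alone, 2 rose and 1 fell, and in the fit of all 71 libraries, 1 rose and 1 fell. Called in the 12 libraries were the enzymes PGAM1 (0.65 ± 0.11, adjusted p = 0.00183) and PKM (0.53 ± 0.10, adjusted p = 0.00297), both higher at LRMN. GPD1, which turns the glycolytic intermediate dihydroxyacetone phosphate into glycerol 3-phosphate for lipid synthesis, measured 5.098, 4.82, 3.29 and 3.78 CPM in LRMN. The controls held 10.02 to 14.1 (median 11.5) CPM, and the change was -1.47 ± 0.15 (adjusted p = 0.000107). PLPPR1, of the lipid phosphatase-related family, measured 65.8, 58.9, 51.4 and 80.1 CPM against 30.8 to 40.3 (median 36.8) CPM, a log2 change of 0.80 ± 0.11 (adjusted p = 0.00075). ANGPTL8, an insulin-responsive inhibitor of lipoprotein lipase, fell: 2.63, 1.96, 1.88 and 3.78 CPM in LRMN, 4.27 to 8.27 (median 5.69) CPM in the controls and a log2 change of -1.20 ± 0.25 (adjusted p = 0.00605). The LRMN and control ranges did not overlap for GPD1, PLPPR1 or ANGPTL8. CPT1A, the gate of mitochondrial fatty acid uptake, had a log2 change of 0.17 ± 0.17 (adjusted p = 0.508), and FASN, fatty acid synthase, 0.13 ± 0.09 (adjusted p = 0.359). Of 32 tested PPARA targets and fatty acid oxidation genes, 4 rose and 2 fell (median -0.01). That is 18.8% called, near the 15.9% of all features. In the reduced set, 1 rose and none fell by edgeR (at an unadjusted p under 0.05, 6 higher and 3 lower).

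Of 25 tested genes of insulin and IGF signalling, 8 rose and 1 fell (median 0.31), and in the reduced set, 3 rose and none fell by edgeR (at an unadjusted p under 0.05, 6 higher and 1 lower). IGFBP2, which binds insulin-like growth factors, measured 495, 488, 447 and 519 CPM in LRMN and 272 to 352 (median 281) CPM in the controls, a log2 change of 0.69 ± 0.08 (adjusted p = 0.000166). INSR, the insulin receptor, rose (0.47 ± 0.10, adjusted p = 0.00659), and AKT2, a kinase downstream of it, fell from a low level (-0.86 ± 0.18, adjusted p = 0.0069). Of 29 tested hypoxia response genes, 6 rose and 1 fell (median 0.13), 24.1% called against 15.9% of all features. The rises were led by CA9 (0.74 ± 0.15, adjusted p = 0.00428), a carbonic anhydrase, and P4HA1 (0.77 ± 0.17, adjusted p = 0.0084), a collagen prolyl hydroxylase. Without LRMN 2, LRMN 4 and CTRL 1, none of the hypoxia list was called by edgeR in either direction (at an unadjusted p under 0.05, 7 higher and 2 lower). In that fit the adjusted p was 0.078 for INSR and 0.235 for AKT2.

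**Figure D4:**
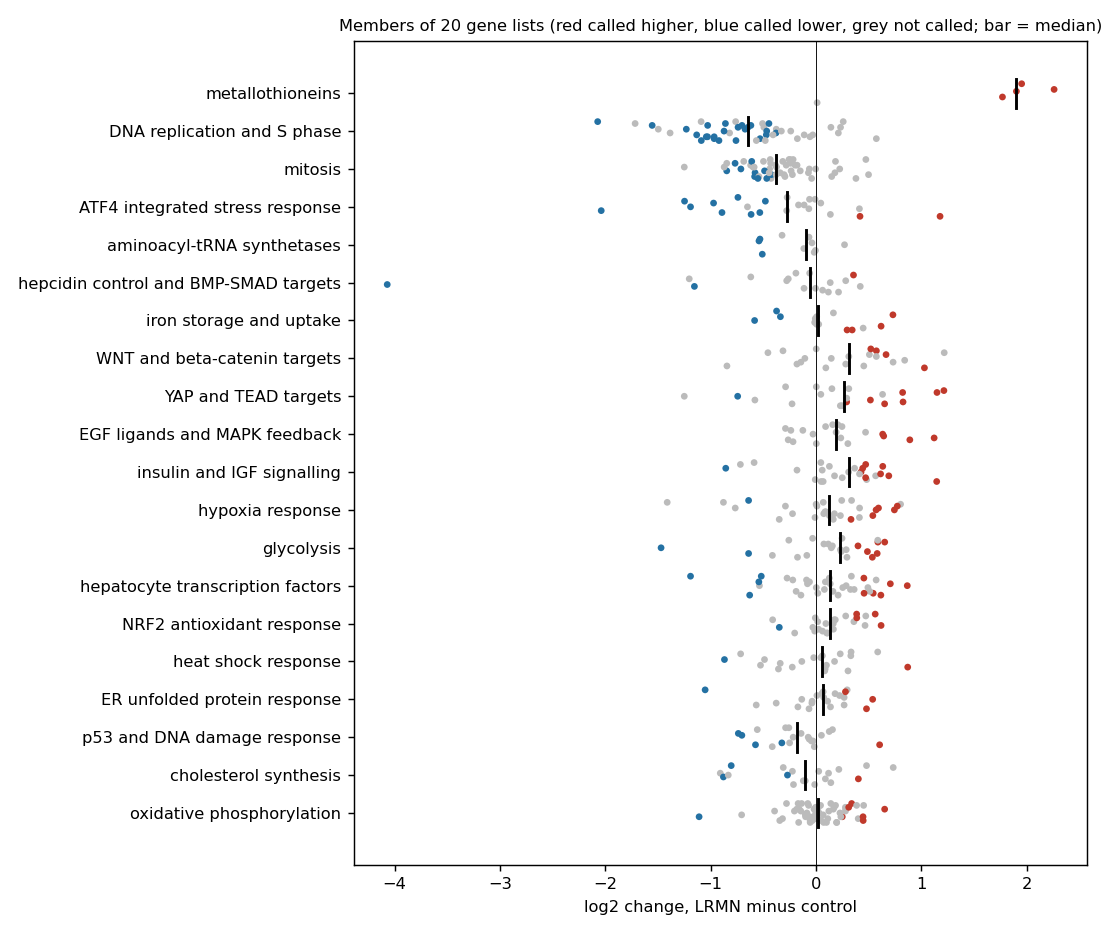
Each point is a tested member of 1 of 20 gene lists (rows), placed by its log2 change (x axis, LRMN minus control); red was called higher, blue lower and grey not called, and the black bar is the list's median. The metallothionein list lies to the right with a median of 1.90, the DNA replication list to the left with -0.65, and HAMP at -4.07 is the leftmost point.

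Hepatocytes owe their identity to a network of transcription factors. Of 34 tested, 6 rose and 4 fell (median 0.13), and in the reduced set, 3 rose and 2 fell. NR2F1, an orphan nuclear receptor, measured 121, 108, 108 and 111 CPM in LRMN and 58.98 to 74.6 (median 68.5) CPM in the controls, a log2 change of 0.71 ± 0.08 (adjusted p = 0.000166). NR5A2, a nuclear receptor that controls bile acid and cholesterol genes, measured 40.3, 50.8, 44.2 and 49.1 CPM against 18.5 to 32.4 (median 24.7) CPM, a log2 change of 0.87 ± 0.12 (adjusted p = 0.000801). CEBPA, a factor of mature hepatocytes, fell (-0.63 ± 0.11, adjusted p = 0.00203), as did NR1H4, the bile acid receptor FXR (-0.54 ± 0.10, adjusted p = 0.00304). The groups were apart for these 4 genes. HNF4A had a log2 change of -0.08 ± 0.16 and was not called. Of 21 acute phase and inter-alpha inhibitor genes, 5 rose and 2 fell, the falls being HAMP and HP, and in the reduced set, 2 rose and 1 fell. ITIH2 measured 1231, 1062, 1234 and 1022 CPM in LRMN and 568 to 793 (median 731) CPM in the controls, a log2 change of 0.68 ± 0.11 (adjusted p = 0.00151). ALB, albumin, had a log2 change of 0.42 ± 0.15 (adjusted p = 0.0716) and AFP, alpha-fetoprotein, -0.14 ± 0.18 (adjusted p = 0.623); neither was called.

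Responses to foreign chemicals and to stress were read from 6 lists, to be set against the 15.9% of all features that were called. Of 5 tested AHR targets 1 rose, of 13 PXR and CAR targets 3 rose and 1 fell (30.8% called), and of 37 detoxification enzymes 4 rose and 3 fell (18.9%). In the reduced set, of the PXR and CAR list 3 rose and none fell by edgeR (at an unadjusted p under 0.05, 4 higher and 3 lower), of the detoxification list 5 rose and 3 fell, and of the AHR list, none was called in either direction by edgeR (at an unadjusted p under 0.05, 1 higher and 0 lower). CYP1A1, the main target of the aryl hydrocarbon receptor, measured 65.95, 175, 121 and 37.1 CPM in LRMN and 57.2 to 96.996 (median 76.95) CPM in the controls. LRMN 2 and LRMN 3 stood above the controls and LRMN 4 below them, and the change of 0.36 ± 0.29 (adjusted p = 0.41) did not pass. Of 24 tested NRF2 targets, 4 rose and 1 fell (median 0.14, 20.8% called). In the reduced set, 1 rose and none fell by edgeR (at an unadjusted p under 0.05, 6 higher and 1 lower), and in the fit of all 71 libraries, none was called in either direction by edgeR (at an unadjusted p under 0.05, 2 higher and 1 lower). NQO1, a quinone reductase, rose (0.39 ± 0.09, adjusted p = 0.012) and HMOX1, heme oxygenase, did not pass (0.17 ± 0.12, adjusted p = 0.34). Of 21 heat shock genes 1 rose and 1 fell (9.5%), and in the reduced set, none rose and 1 fell by edgeR (at an unadjusted p under 0.05, 1 higher and 2 lower). Of 22 genes of the unfolded protein response 3 rose and 1 fell (18.2%). These calls were lost in the reduced set, where none was called in either direction by edgeR (at an unadjusted p under 0.05, 4 higher and 2 lower), and in the fit of all 71 libraries, where none was called in either direction by edgeR (at an unadjusted p under 0.05, 3 higher and 1 lower). MGST1, a membrane glutathione transferase, measured 73.5, 37.8, 53.8 and 75.4 CPM against 102 to 176 (median 145) CPM in the controls, a log2 change of -1.27 ± 0.20 (adjusted p = 0.00157). MAOA, which breaks down amines, rose (0.74 ± 0.13, adjusted p = 0.00282).

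Several genes outside these groups were called as well. LYZ, the secreted enzyme lysozyme, measured 3050.2, 3452, 2617 and 3819.6 CPM in LRMN and 1392 to 1988 (median 1558) CPM in the controls, a log2 change of 0.99 ± 0.11 (adjusted p = 0.000124). PTPRK, a receptor phosphatase of cell contacts, measured 503, 655, 544 and 523 CPM against 265 to 351 (median 293) CPM, a log2 change of 0.89 ± 0.09 (adjusted p = 8.53e-05). LAP3, a leucine aminopeptidase, measured 807, 1065, 819 and 909 CPM against 406 to 601 (median 469) CPM, a log2 change of 0.90 ± 0.10 (adjusted p = 0.000135). NPNT, a matrix ligand of integrins, measured 35.7, 34.4, 35.2 and 52.5 CPM against 15.1 to 27.7 (median 18.1) CPM, a log2 change of 1.03 ± 0.15 (adjusted p = 0.00116). DYSF, which acts in membrane repair, fell: 11.02, 2.32, 6.58 and 10.5 CPM in LRMN, 19.6 to 30.8 (median 25.4) CPM in the controls and a log2 change of -1.70 ± 0.28 (adjusted p = 0.00183). LGALS3, the sugar-binding galectin 3, measured 961, 355, 716 and 832 CPM against 1104 to 2049 (median 1717) CPM, a log2 change of -1.27 ± 0.22 (adjusted p = 0.00244); LRMN 2 was the lowest for both. CASP8, the initiator caspase of death receptors, fell (-0.63 ± 0.12, adjusted p = 0.00377). Without LRMN 2, LRMN 4 and CTRL 1, the CASP8 call was lost (adjusted p = 0.0507), as were those of NQO1 (adjusted p = 0.0528) and PKM (adjusted p = 0.0524). For LYZ, PTPRK, LAP3, NPNT, DYSF, LGALS3 and CASP8, all 4 LRMN libraries lay outside the control range. For DYSF and LGALS3 this was a condition of being named. PTPRK and LAP3 were named by a rule that required a call against the controls and a small p against the other sites. Their calls are therefore no support.

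Markers of HepG2 cells and of other cell types were read as a check on the samples. The summed level of 14 HepG2 and hepatocyte markers was 185507 to 206690.5 CPM in LRMN and 141620.0 to 198692 CPM in the controls, and 3 of the 14 rose (APOA1, APOB and AMBP) with none falling by edgeR or DESeq2; in the reduced set, none was called in either direction by edgeR (at an unadjusted p under 0.05, 3 higher and 0 lower). Each of the 3 calls was lost without CTRL 2 (adjusted p up to 0.159 over single libraries left out). The summed immune marker level was 2871 to 3987 CPM in LRMN and 1639.7 to 2217 CPM in the controls; LYZ makes up most of it, and of the other tested markers CD68 fell (-0.59 ± 0.16, adjusted p = 0.0237; lost without LRMN 3 or LRMN 4, adjusted p up to 0.079) while CD14 (-0.22 ± 0.27) and CD3D (0.10 ± 0.19) were not called. Fibroblast and stellate markers summed to 36.4 to 49.8 CPM in LRMN and 37.9 to 61.3 CPM in the controls. Endothelial markers summed to 23.9 to 29.8 and 25.3 to 31.5 CPM. CDH5, an endothelial cadherin at about 1 CPM in the controls, was called lower (-2.04 ± 0.48, adjusted p = 0.012), but without CTRL 2, 3, 6 or 8 it did not pass the filter on low counts.

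LRMN was then set against the mean of the other 15 sites, a contrast that uses no control library. It shares the 4 LRMN libraries with the control comparison, so the direction of a gene in one is no independent support for the other. Of 6916 features, 1974 differed (28.5%), 1128 higher (16.3%) and 846 lower (12.2%). The other sites were not alike. Mean CCN2, for example, was 396 to 541 CPM at BRWI, CROH, FRWI, GRNY, JRMI and VROH. It was 117 to 192 CPM at CRMI, GRMI, IHIN, MAWI, MIWI, MROH, ORNY and SRMI. RRMI lay between these groups of sites at 234 CPM, and the control mean was 313 CPM. A difference from the mean of such sites is not a difference from each of them. HAMP was lower than the other sites by a log2 difference of -3.83 ± 0.28 (adjusted p = 5.81e-16), and LRMN was the lowest of 16 sites at 1.28 ± 0.468 CPM (n = 4). Next lowest was BRWI at 5.17 ± 2.27 CPM, and the other 14 sites lay between 13.9 and 26.5 CPM. MT1M exceeded the other sites by 1.03 ± 0.11 (adjusted p = 2.38e-10) and MT1G by 1.05 ± 0.09 (adjusted p = 2.44e-13). For both, BRWI was the only site above LRMN: 72.8 ± 9.38 CPM against 62.9 ± 2.96 CPM for MT1M, and 832 ± 88.9 CPM against 781 ± 51.8 CPM for MT1G. The difference between LRMN and BRWI was not tested.

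HBEGF differed from the other sites by 1.02 ± 0.08 (adjusted p = 1.22e-14), PLPPR1 by 1.09 ± 0.08 (adjusted p = 5.81e-16), LAP3 by 1.00 ± 0.07 (adjusted p = 5.81e-16) and CCN2 by 1.65 ± 0.13 (adjusted p = 1.22e-14), each with LRMN the highest of 16 sites. Some genes, LAP3 among them, were named because their p in this same contrast was among the smallest. Such p values and ranks describe the choice and are no support. The neighbour of LRMN in this order was JRMI for HBEGF, at 58.4 ± 7.04 CPM against 76.6 ± 6.62 CPM at LRMN. For CCN2 it was GRNY at 541 ± 235 CPM against 739 ± 309 CPM, where the spreads overlap. The CCN2 spread of LRMN, where LRMN 2 was the highest library, overlaps those of 5 more sites. They are JRMI (461 ± 90.6 CPM), FRWI (453 ± 73.6 CPM), BRWI (442 ± 103 CPM), CROH (412 ± 72.3 CPM) and VROH (396 ± 85.6 CPM). For PLPPR1 the spreads of LRMN (64.1 ± 12.2 CPM) and GRNY (47.0 ± 5.77 CPM) overlap. MCM10 was lowest at LRMN (17.4 ± 2.49 CPM), followed by BRWI (25.4 ± 2.47 CPM), with a difference from the other sites of -1.04 ± 0.13 (adjusted p = 2.84e-08). GPD1 was lowest at LRMN as well (4.24 ± 0.854 CPM), but its spread overlaps those of other sites. These are JRMI (5.11 ± 1.66 CPM), GRNY (6.00 ± 2.23 CPM), FRWI (6.48 ± 2.36 CPM) and BRWI (6.49 ± 2.09 CPM). The GPD1 difference from the mean of the other sites was -1.33 ± 0.19 (adjusted p = 2.51e-07). Of the 47 replication genes, 28 were lower than at the other sites and 2 were higher. ASNS was lower by a log2 difference of -1.84 ± 0.45 (adjusted p = 0.00154); LRMN was the lowest site at 11.6 ± 5.36 CPM, but GRNY (17.2 ± 16.9 CPM) and JRMI (18.8 ± 13.6 CPM) lay within the spread. GLUL was higher by 0.75 ± 0.09 (adjusted p = 1.58e-08), and LRMN was the highest site at 243 ± 17.3 CPM, with spreads that overlap those of CROH (234 ± 25.5 CPM), JRMI (227 ± 21.9 CPM) and FRWI (221 ± 22.2 CPM). Some genes that rose against the controls had a higher mean at another site than at LRMN. These include AXIN2 (CROH 94.5 CPM, LRMN 91.5), ETNPPL (RRMI 7.55, LRMN 3.28) and EDN1 (BRWI 143, LRMN 136). EGFR (CROH 33.3, LRMN 27.4) and ANKRD1 (FRWI 728, LRMN 701) did so too. CYP3A7, which rose against the controls (0.51 ± 0.12, adjusted p = 0.0105), had a log2 change of 0.15 ± 0.11 (adjusted p = 0.327) against the other sites and did not pass there.

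**Figure D5:**
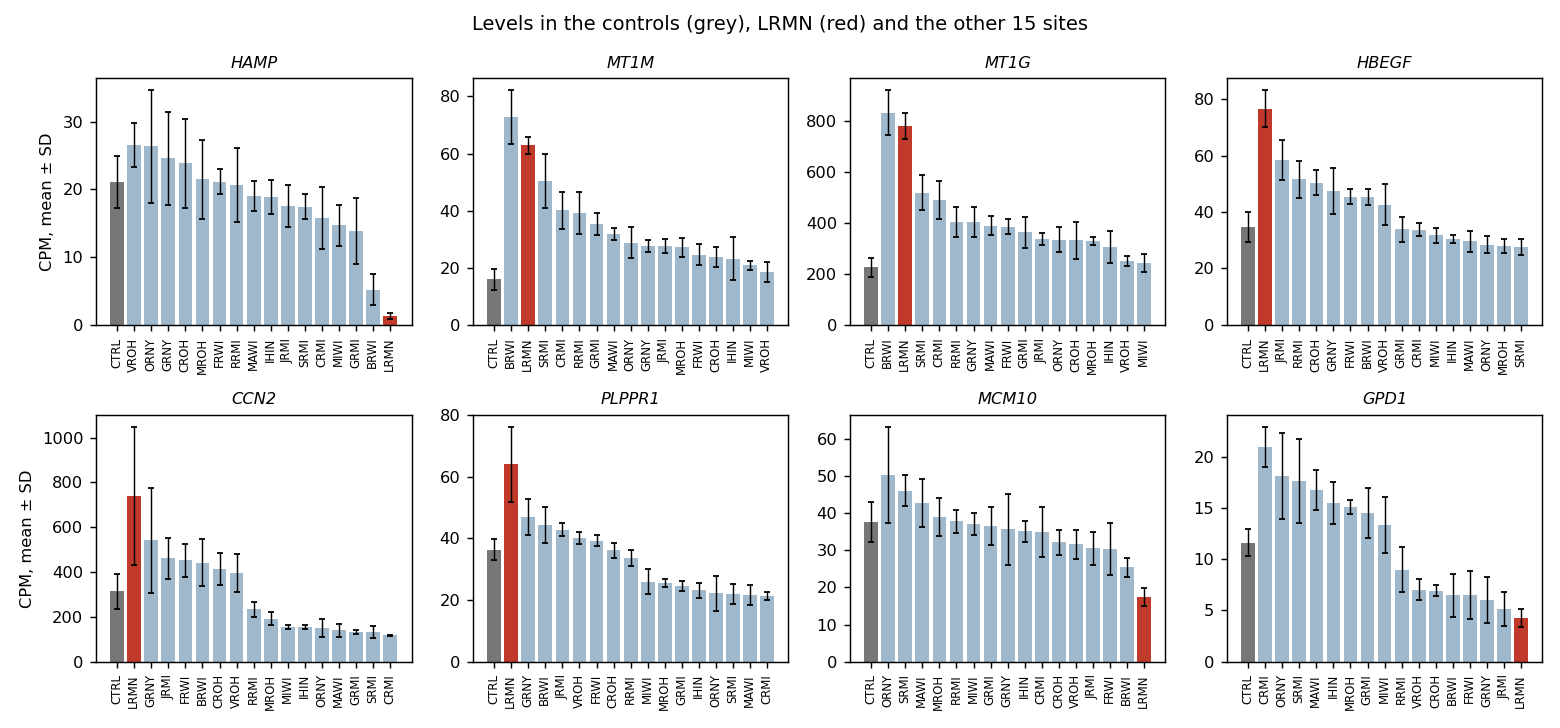
Mean CPM ± SD (y axis from 0) for 8 genes in the controls (grey), LRMN (red) and the other 15 sites (blue, ordered by level), over the 68 libraries kept for this comparison. LRMN is the lowest site for HAMP, MCM10 and GPD1, the highest for HBEGF, CCN2 and PLPPR1, and second to BRWI for MT1M and MT1G.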

How the data were processed

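TempO-Seq libraries of HepG2 cells were read from a table of estimated counts deposited by the authors, made with Salmon on GRCh38 per the submitters' processing notes; the Salmon version and the summary to genes are not stated there. Its name calls the values normalized. In each of the 12 libraries, 92.6 to 94.1% of low values (under 20) lay within 0.02 of whole multiples of about 1 read. The values were therefore used as estimated counts and rounded. The last entry is incomplete and was left out. Columns were matched to samples by name, and groups come from the labels.

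LRMN was compared with the controls in edgeR 4.0.16 (R 4.3.3) by the quasi-likelihood test on the 12 libraries, with TMM scaling, filterByExpr with a minimum count of 10 and Benjamini-Hochberg adjustment, called under 0.05. LRMN was compared with the mean of the other 15 sites in a 17-group fit of 68 libraries, without 3 that stood apart (VROH 2, CRMI 1 and SRMI 3). Standard errors are the log2 change divided by the root of the F value. CPM use TMM-adjusted totals over the 68 libraries, and log2 changes come from the 12-library fit. Total counts, 4.47 to 14.5 M (M stands for 1e6), set the counting error of each value.

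The comparison, gene lists, designs and named genes were chosen with earlier results of these data known; the 12-library fit was chosen over a fit of all 71 libraries, which gives fewer calls. Lists are described by counts and medians, with no test of the list; 22 list entries were matched by an older symbol. Named genes were the 12 largest rises and falls with groups apart and at least 5 CPM, up to 4 called members per list, up to 8 rises and falls with the smallest p against the other sites, and a fixed set whatever its values; the text gives part of them, and a few genes are not reported here. Others named from the lists or in the closing section were chosen after their values were seen. Replicate numbers did not pair the samples. Alternatives were DESeq2 1.42.0, RLE scaling, no filter, single libraries left out, a replicate block and the 17-group fits. The scripts were tested on simulated data. Promoter sequences are from RefSeq (GRCh38.p14), and gene positions from GENCODE release 29.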

Additional observations from a re-analysis of the deposited data

Results flagged for a closer look

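Values of 59 genes and 2 library measures, in the 4 LRMN and the 8 control libraries, were looked at for a library far from the rest of its group. Of 122 such sets, 8 held one; chance alone marks about 1 set in 20. In LRMN, LRMN 2 stood above the others for ALDH18A1 at 70.62 CPM, and LRMN 4 stood above the others for NPNT at 52.45 CPM. Among the controls, CTRL 7 was the highest for CCN2 (484.6 CPM), LAP3 (600.8 CPM) and CA9 (162.2 CPM). CTRL 5 was the lowest for HBEGF (22.79 CPM), and CTRL 1 was the highest for NPNT (27.71 CPM). CTRL 1 also had the largest SD of log2 differences from its group among the controls, 0.3492. The calls of these 6 genes held when any 1 of the 12 libraries was left out. The effect of LRMN water differed from the mean of the other 15 sites in 1974 features by edgeR's test of that difference.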

How the results depend on the processing

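Against the controls, leaving out 1 library at a time gave 657 to 1219 calls, 336 to 600 higher and 321 to 619 lower; leaving out LRMN 2 gave the fewest (471 of the 1065 calls lost) and CTRL 1 the most. Leaving out LRMN 2, LRMN 4 and CTRL 1, chosen after seeing the data, gave 377 (180 higher, 197 lower), 345 of them among the 1065; fewer samples enter that fit. The fit of all 71 libraries gave 348 (153 higher, 195 lower), 334 of them shared. DESeq2 gave 1305, with 1041 shared. Against the other 15 sites, the fit of all 71 gave 738 (430 higher, 308 lower). Leaving out an LRMN library there gave 1027 to 1841 calls, 594 to 1034 higher and 433 to 807 lower, the fewest without LRMN 2. Lower calls outnumbered higher ones with the 12 libraries; higher outnumbered lower without LRMN 4 and CTRL 1 (550 and 508) and in the 17-group fit of 68 libraries (647 and 567). Under the alternatives, 70 such counts lay within 1.5 times of the main count and 17 did not. No called log2 change of a named gene changed sign. Among those not called, 36 values of 8 genes did (MT1E, CYP1A1, CDKN1A, MKI67, AFP, LGR5, CCN1 and FTH1), so no direction is read for them. Of the named genes' values, 3312 stayed on their side of the threshold, 620 fell short of it and 8 newly passed. Of the list medians, 74 values of 20 lists changed sign, all with a main median within 0.0852 of 0, and 1 moved beyond the spread. The cause of these differences was not tested.

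With the replicate number as a block, 5 features were called against the controls, 3 higher and 2 lower; only CTRL 1 to 4 share numbers with LRMN, so CTRL 5 to 8 add nothing to that fit. The deviations of same-numbered LRMN and control libraries correlated at -0.0489, -0.359, 0.423 and -0.39, and LRMN 4 was closest to CTRL 1 (0.779), so the numbers do not pair the samples. The block against the other sites left out MIWI and GRMI 1, whose numbers are unsettled. Depth limits scarce genes most: MT1A, MT1X and CCND1 were not tested for low counts.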

Other observations

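Of 59 tested genes of oxidative phosphorylation 6 rose and 1 fell, the fall being CYCS, cytochrome c (log2 change -1.11 ± 0.21, adjusted p = 0.00332). Of 68 mitochondrial ribosomal protein genes 4 rose and 7 fell, and of 53 ribosome biogenesis genes 2 rose and 4 fell. The shares called in these lists were 11.9%, 16.2% and 11.3% in this order. They lie near or below the 15.9% of all features. In the reduced set (without LRMN 2, LRMN 4 and CTRL 1), of the first list 1 rose and 1 fell, of the second 2 rose and 1 fell, and of the third none rose and 1 fell by edgeR (at an unadjusted p under 0.05, 1 higher and 5 lower). Of 19 cholesterol synthesis genes 1 rose and 3 fell (21.1% called). In the reduced set none rose and 1 fell by edgeR (at an unadjusted p under 0.05, 1 higher and 3 lower). Among chemokines, CCL20 rose (0.49 ± 0.08, adjusted p = 0.00226) and CXCL2 fell (-0.90 ± 0.18, adjusted p = 0.00548).

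CYP24A1, the enzyme that inactivates vitamin D, was noticed among the largest falls after its values were seen. It measured 1.97, 4.46, 8.46 and 0.979 CPM in LRMN libraries 1 to 4 and 7.80 to 42.8 CPM in the controls. LRMN 3 stood just above CTRL 1, so the groups overlapped. CYP24A1 passed the filter on low counts only through the controls, where it was higher. The change was -2.61 ± 0.51 (adjusted p = 0.00399), and the call held without any 1 library.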
